A study of Mus musculus with 6 samples.

Results

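Amino acid transporter genes of the families Slc1a, Slc3a, Slc7a, Slc36a, Slc38a and Slc43a were examined in gastrocnemius, the large calf muscle, of Ogg1Tg and Control mice. Members were all gene symbols made of a family name and a number, leaving out Slc7a11, which gave 41 of the 35491 named entries. Of these, 36 had a mean value of at least 1 over the 6 libraries and were tested. Both groups were male mice of a C57BL/6J background, aged 20 weeks, fed chow and untreated. The 3 Ogg1Tg mice carried a transgene for human OGG1-1a, an enzyme that removes oxidised guanine from DNA, fused to a mitochondrial targeting sequence and driven by a CMV/AG promoter. That promoter is not specific to muscle, and the sources used here do not give the number of transgenic lines. The 3 Control mice were C57BL/6J mice; whether they were littermates of the transgenic mice is not stated. Nothing in the labels ties animals to a preparation day either, so a difference in preparation between the groups cannot be told apart from genotype. The p-values set the group difference against the spread within groups of these 6 libraries.

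Amino acids cross membranes on carriers that differ in substrate and in driving force. Slc1a carriers take up glutamate or exchange small neutral amino acids. Slc7a holds the cationic amino acid carriers and the light chains of heteromeric exchangers, which need a heavy chain of the Slc3a family to reach the cell surface. Slc38a carriers couple small neutral amino acids and glutamine to sodium, Slc36a carriers couple them to protons, and Slc43a1 and Slc43a2 let large neutral amino acids pass down their gradient. Muscle is a large store of amino acids and exports glutamine and alanine. When amino acids are short or protein synthesis is stressed, the transcription factor ATF4 is known to raise transcription of several of these carriers through C/EBP-ATF response elements.

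Values are reads per gene divided by 1 factor per library, called scaled reads below. Depth in named genes ranged from 45189860 to 56126407 reads. Mouse Ogg1 measured 154 to 225 scaled reads in Control and 176 to 201 in Ogg1Tg muscle, which does not measure the human transgene. The 8 skeletal muscle markers held 22.5% to 27.4% of all scaled reads in every library. Their sum was 10395551 scaled reads in Ogg1Tg replicate 3, or 22.9% of its total, against 14615885 to 18687868 in the other 5 libraries. The total of scaled reads was thus also lowest in that library, so the share there stayed in range while the marker values were low. Ogg1Tg replicate 3 stood apart: its Spearman correlation across genes with the other libraries was 0.946 to 0.953, against 0.975 to 0.983 among the other 5. The 10 lymphocyte markers summed to 10980.4 scaled reads in it, against 49.9 to 97.9 in Control and 124 and 90.0 in Ogg1Tg replicates 1 and 2. Relative to the mean of the Control libraries, adipocyte markers had a median log2 value of 1.98 there, against -0.28 and -0.29 in the other Ogg1Tg libraries, and the skeletal muscle markers at -0.75, against -0.17 and 0.11. The 8 genes of the slow fibre list had a median log2 fold change of 0.78 between the groups, and none passed. That list includes Myh2, a myosin of fast fibres, with a log2 fold change of -0.46. Myh7, a myosin of slow fibres, was at 10585, 35642 and 35632 scaled reads in Control and 57593, 79545 and 50855 in Ogg1Tg. Myh7, Tnnt1, Tnni1 and Tnnc1 lay higher in Ogg1Tg without overlap, beside 7.03% of all genes tested. Groups overlapped for Myh2, Myl2, Myl3 and Atp2a2. Control replicate 1 was the lowest library for Myh7, Tnnt1, Tnni1 and Tnnc1, and the part of fibre type in the results below was not tested.

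Slc7a5, Slc7a1, Slc7a3, Slc1a4 and Slc3a2 rose in Ogg1Tg muscle, and no member was called lower. These 5 are 13.9% of the 36 tested members, beside 0.545% of all 23312 genes tested that changed, 0.395% that rose and 0.150% that fell (limma, adjusted p under 0.05). The other 31 members did not pass. The groups did not overlap for 6 members that lay higher in Ogg1Tg, beside 7.03% of all genes, and for 3 that lay lower, beside 11.3% of all genes. The median log2 fold change of the tested members was 0.21 with all libraries and 0.05 without Ogg1Tg replicate 3, beside -0.02 for all genes. Of the 5, Slc7a5 and Slc7a1 kept their call whichever of the 6 libraries was left out. Slc7a3, Slc1a4 and Slc3a2 lost their call when any library other than Ogg1Tg replicate 3 was left out. Without Ogg1Tg replicate 3 they were called when low genes were filtered on the remaining 5 libraries (22815 genes tested), and not when the filter used all 6 (23312 genes tested).

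The largest fold was that of Slc7a5, which encodes LAT1, the light chain that exchanges leucine and other large neutral amino acids. Slc7a5 measured 143, 206 and 166 scaled reads in Control muscle (replicates in number order, here and below) and 3787, 2871 and 2735 in Ogg1Tg muscle. Every Ogg1Tg library lay far above every Control library. Slc7a5 rose 18.2-fold on the log2(value + 1) scale, with a 95% interval of 13.6 to 24.3 (log2 fold change 4.18 ± 0.18 SE, limma adjusted p = 2.7e-05). Without Ogg1Tg replicate 3 the log2 fold change of Slc7a5 was 4.27. Slc7a5 occupies bases 121881150 to 121907694 of chromosome 8 (mm10, minus strand). It lies within the GENCODE span of Gm20388 on the other strand, with 0 exon bases in common.

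Slc3a2 encodes 4F2hc (CD98), the heavy chain that pairs with Slc7a5 and with several other light chains. Slc3a2 measured 3051, 2954 and 3245 scaled reads in Control and 5126, 4618 and 4991 in Ogg1Tg. The groups did not overlap, and the spread within each was small. Slc3a2 rose 1.59-fold, with a 95% interval of 1.33 to 1.91 (limma adjusted p = 0.046). Leaving out any library other than Ogg1Tg replicate 3 gave adjusted p-values of 0.061 to 0.38 in limma. Slc3a1, the heavy chain of the kidney and intestine, measured 2.77, 16.8 and 6.53 in Control and 16.7, 10.6 and 31.2 in Ogg1Tg, and the groups overlapped.

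The other member light chains that pair with Slc3a2 did not pass. Slc7a11, the cystine light chain left out of the members, also pairs with it, and rose 45.6-fold (limma adjusted p = 1.9e-06). Slc7a8 (LAT2), an exchanger of neutral amino acids, measured 842 ± 152 scaled reads in Control and 726 ± 159 in Ogg1Tg (mean ± SD, n = 3 each). Slc7a6 (y+LAT2), which exchanges cationic for neutral amino acids, measured 709 ± 82.7 and 691 ± 103, with a 95% interval of the fold from 0.75 to 1.25. Slc7a7 (y+LAT1), of the same kind and known from macrophages, measured 52.7, 104 and 66.6 in Control and 84.4, 52.9 and 152 in Ogg1Tg. The highest of these values was in Ogg1Tg replicate 3, without which the log2 fold change of Slc7a7 was -0.09 in place of 0.30. Slc7a10 (Asc-1), a carrier of small neutral amino acids and a known marker of white adipocytes, measured 43.0, 44.8 and 54.8 in Control and 18.9, 63.5 and 158 in Ogg1Tg. Without replicate 3 its log2 fold change was -0.43 in place of 0.29. In replicate 3 the 10 macrophage markers summed to 10364.8, against 3649 to 7079 in the other 5 libraries, and the adipocyte markers were raised as given above. The part of these markers in the Slc7a7 and Slc7a10 values was not tested.

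Levels of different genes were compared as scaled reads per kb of annotated exon. On that scale the 5 light chains Slc7a5, Slc7a6, Slc7a7, Slc7a8 and Slc7a10 summed to 444, 420 and 380 in Control and to 1364, 1164 and 1095 in Ogg1Tg. The Slc3a2 level was 865, 837 and 920 in Control and 1453, 1309 and 1414 in Ogg1Tg. The ratio of the Slc3a2 level to the light chain sum was thus 2.12 ± 0.26 in Control and 1.16 ± 0.12 in Ogg1Tg muscle. With the light chain Slc7a11 included, the ratio was 2.10 ± 0.25 and 0.997 ± 0.086. All 3 Ogg1Tg libraries lay below all 3 Control libraries in this ratio. These ratios describe RNA and were not tested. Their size depends on the annotated exon lengths, which need not be those of the expressed transcripts, so they do not count molecules.

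**Figure D1:**
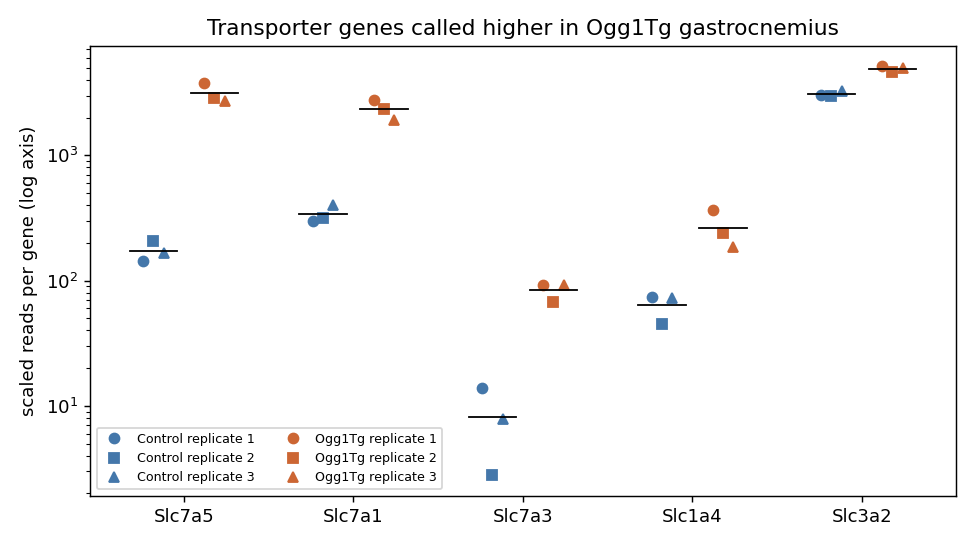
Scaled reads per gene (log axis) of the 5 transporter genes called higher in Ogg1Tg muscle, by library; blue marks Control, orange marks Ogg1Tg, shapes mark replicate numbers and black lines mark group means. The groups do not overlap for any of the 5, and Slc7a5 runs from 143 to 206 in Control and from 2735 to 3787 in Ogg1Tg.

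Of the carriers of arginine, lysine and ornithine, Slc7a1 and Slc7a3 rose and Slc7a2 did not pass. Slc7a1 (CAT1), which most cell types express, measured 297, 316 and 405 scaled reads in Control and 2765, 2361 and 1930.3 in Ogg1Tg. The lowest Ogg1Tg library was well above the highest Control library. Slc7a1 rose 6.91-fold, with a 95% interval of 5.22 to 9.13 (log2 fold change 2.79 ± 0.18 SE, limma adjusted p = 0.00014). Slc7a3 (CAT3), known mainly from brain and embryo, was near the lower limit of detection in Control, at 13.9, 2.80 and 7.83, or 18 reads in all. In Ogg1Tg muscle Slc7a3 measured 92.2, 67.5 and 92.5, or 226 reads. Slc7a3 rose 10.6-fold, with a wide 95% interval of 4.51 to 25.0 (limma adjusted p = 0.033, and 0.058 to 0.15 without any library other than Ogg1Tg replicate 3). Slc7a2 (CAT2), the carrier of this group that muscle and liver express most, measured 3579, 3441 and 3978 in Control and 4523, 4565 and 3557 in Ogg1Tg, with a 95% interval of the fold from 0.92 to 1.42.

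Slc7a2 remained the most abundant of the 3 cationic carriers per kb. It made up 92.7% ± 0.52 of their summed scaled reads per kb in Control and 67.1% ± 2.0 in Ogg1Tg muscle, and Slc7a1 6.77% ± 0.66 and 29.6% ± 1.8. Their sum was 421, 405 and 473 in Control and 759, 722 and 581 in Ogg1Tg. The sum was thus 1.59 times as high in Ogg1Tg as in Control, a much smaller difference than the fold of Slc7a1 alone. In the large neutral class the shares shifted further. Slc7a5 made up 8.26% ± 1.4 of the summed level of Slc7a5, Slc7a8, Slc43a1 and Slc43a2 in Control and 61.0% ± 3.8 in Ogg1Tg. The sum of this class was 578, 587 and 514 in Control and 1617, 1368 and 1165 in Ogg1Tg, a ratio of means of 2.47.

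**Figure D2:**
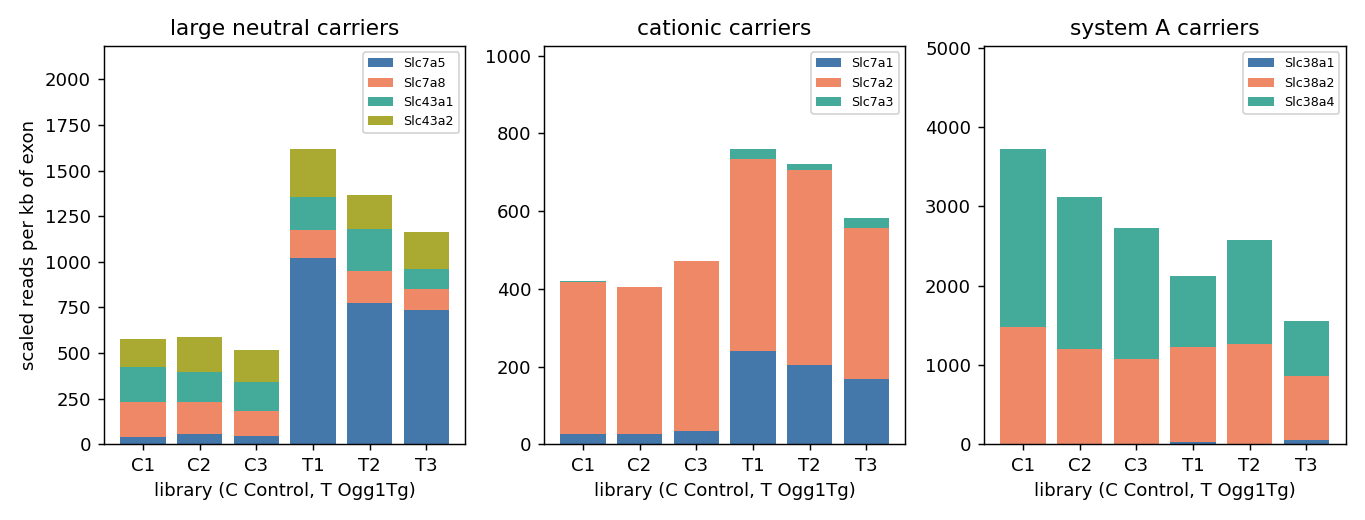
Scaled reads per kb of exon in each library (C1 to C3 Control, T1 to T3 Ogg1Tg), stacked by gene, for the large neutral, cationic and system A carriers; the panels have separate vertical axes that start at 0. Slc7a5 is a thin band in Control and the largest band in Ogg1Tg, Slc7a2 is the largest cationic band in all 6 libraries, and the Slc38a4 band is smaller in all 3 Ogg1Tg libraries than in any Control library.

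Slc43a1 (LAT3) and Slc43a2 (LAT4), the facilitative carriers of large neutral amino acids, did not pass. Slc43a2 measured 1563, 1942 and 1723 scaled reads in Control and 2639, 1917 and 2042 in Ogg1Tg, with a 95% interval of the fold from 0.98 to 1.60. Slc43a1 measured 983 ± 85.4 and 1000.3 ± 334, with a log2 fold change of -0.03 that was 0.25 without Ogg1Tg replicate 3. Slc43a3, which carries purine bases and not amino acids, measured 1094, 1048 and 865 in Control and 953, 1057 and 835 in Ogg1Tg. The groups overlapped for all 3 genes of the family.

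Among the exchangers of small neutral amino acids Slc1a4 rose and Slc1a5 did not pass. Slc1a4 (ASCT1), an exchanger of alanine, serine, cysteine and threonine, measured 73.5, 44.8 and 73.1 scaled reads in Control and 368, 239 and 186 in Ogg1Tg. All Ogg1Tg values lay above all Control values, with the highest in replicate 1. Slc1a4 rose 4.03-fold, with a 95% interval of 2.44 to 6.66 (log2 fold change 2.01 ± 0.32 SE, limma adjusted p = 0.032). Without any library other than Ogg1Tg replicate 3 its adjusted p in limma was 0.066 to 0.20. Slc1a5 (ASCT2), an exchanger of glutamine, measured 914, 723 and 933 in Control and 715, 749 and 2084 in Ogg1Tg. Only Ogg1Tg replicate 3 was high, and without it the log2 fold change of Slc1a5 was -0.22 in place of 0.29. The lymphocyte, macrophage and adipocyte markers were raised in the same library, and their part in the Slc1a5 value was not tested. In bulk muscle, more cells of a type and more RNA per cell cannot be told apart.

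The windows of RefSeq that hold the 250 bases before and 50 bases after each start were searched for the C/EBP-ATF response element, written TGATGNAA, on both strands. Windows on GRCm38.p6, the assembly of mm10, were found for 30 of the 41 members. Slc7a5 and Slc7a3 were without a window. Of 32817 windows in all, 3.97% held the motif, and 4.51% of 27025 genes had it in at least 1 window. Of the 30 members, 2 had it, Slc1a4 and Slc7a7, the first of which rose. In Slc7a7 the motif lay in 2 of its windows, which overlap and share 1 of the matches, and that gene did not pass. The 250 bases before the starts of the called members that had a window follow, 5′ to 3′ on the strand of the gene. Capitals mark bases of the motif.
Slc1a4, chr11:20332714-20332963, minus strand: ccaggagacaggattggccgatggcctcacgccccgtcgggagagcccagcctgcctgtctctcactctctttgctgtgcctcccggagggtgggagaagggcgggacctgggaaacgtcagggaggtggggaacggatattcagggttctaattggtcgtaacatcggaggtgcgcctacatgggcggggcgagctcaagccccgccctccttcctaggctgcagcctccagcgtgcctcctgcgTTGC
Slc1a4, the 30 bases around the motif, chr11:20332699-20332728, minus strand: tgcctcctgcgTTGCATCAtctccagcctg
Slc3a2, chr19:8713898-8714147, minus strand: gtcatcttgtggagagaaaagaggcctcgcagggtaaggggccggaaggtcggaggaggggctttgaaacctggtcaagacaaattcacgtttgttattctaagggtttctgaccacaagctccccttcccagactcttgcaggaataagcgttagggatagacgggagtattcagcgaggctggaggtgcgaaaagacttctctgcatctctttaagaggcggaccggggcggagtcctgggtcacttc
Slc7a1, first start, chr5:148399905-148400154, minus strand: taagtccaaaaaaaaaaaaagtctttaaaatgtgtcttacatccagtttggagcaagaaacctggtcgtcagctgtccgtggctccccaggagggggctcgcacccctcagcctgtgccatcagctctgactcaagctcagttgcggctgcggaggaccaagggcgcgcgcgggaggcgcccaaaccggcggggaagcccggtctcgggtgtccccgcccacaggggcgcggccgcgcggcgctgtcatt
Slc7a1, second start, chr5:148392816-148393065, minus strand: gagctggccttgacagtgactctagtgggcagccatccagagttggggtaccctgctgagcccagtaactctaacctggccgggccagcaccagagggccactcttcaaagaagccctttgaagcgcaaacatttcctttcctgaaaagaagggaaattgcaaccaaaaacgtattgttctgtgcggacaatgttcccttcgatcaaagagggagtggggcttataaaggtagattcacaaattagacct

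In Slc1a4 the motif reads TTGCATCA on the strand of the gene, begins 4 bases before the start and runs across it. The windows of Slc3a2 and Slc7a1 did not hold these letters, which says nothing of elements elsewhere in those genes. The Slc3a2 window lies inside the annotated span of the gene, which on its strand begins at base 8723369, so that outer start was not searched. A match is a description of the letters and not evidence that a factor binds there.

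Of the 7 members widely described as ATF4 targets, Slc7a5, Slc7a1, Slc7a3, Slc3a2 and Slc1a4 rose, and Slc1a5 and Slc38a2 did not pass. This list was written with earlier results of these data known, so its count is not independent evidence. The median log2 fold change of the 7 was 2.01, and 2.24 without Ogg1Tg replicate 3. Among 8 regulators of the amino acid response, Trib3 and Cebpg rose, beside 0.395% of all genes tested. Trib3, a pseudokinase induced by ATF4, measured 56.9, 46.2 and 54.8 scaled reads in Control and 1574, 771 and 998 in Ogg1Tg (limma adjusted p = 0.00011). Cebpg, a partner of ATF4 on such elements, measured 3703, 3802 and 3610.2 in Control and 7006, 7328 and 5569 in Ogg1Tg (limma adjusted p = 0.039). Atf4 itself measured 4564, 4391 and 4156 in Control and 8471, 7236 and 5719 in Ogg1Tg, with no overlap, and did not pass (limma adjusted p = 0.14). Ddit3 also lay higher without overlap, beside 7.03% of all genes tested, and did not pass (limma adjusted p = 0.21). Groups overlapped for Atf3, Eif2ak3, Eif2ak4 and Cebpb, with log2 fold changes of 0.56, 0.21, -0.03 and -0.14.

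**Figure D3:**
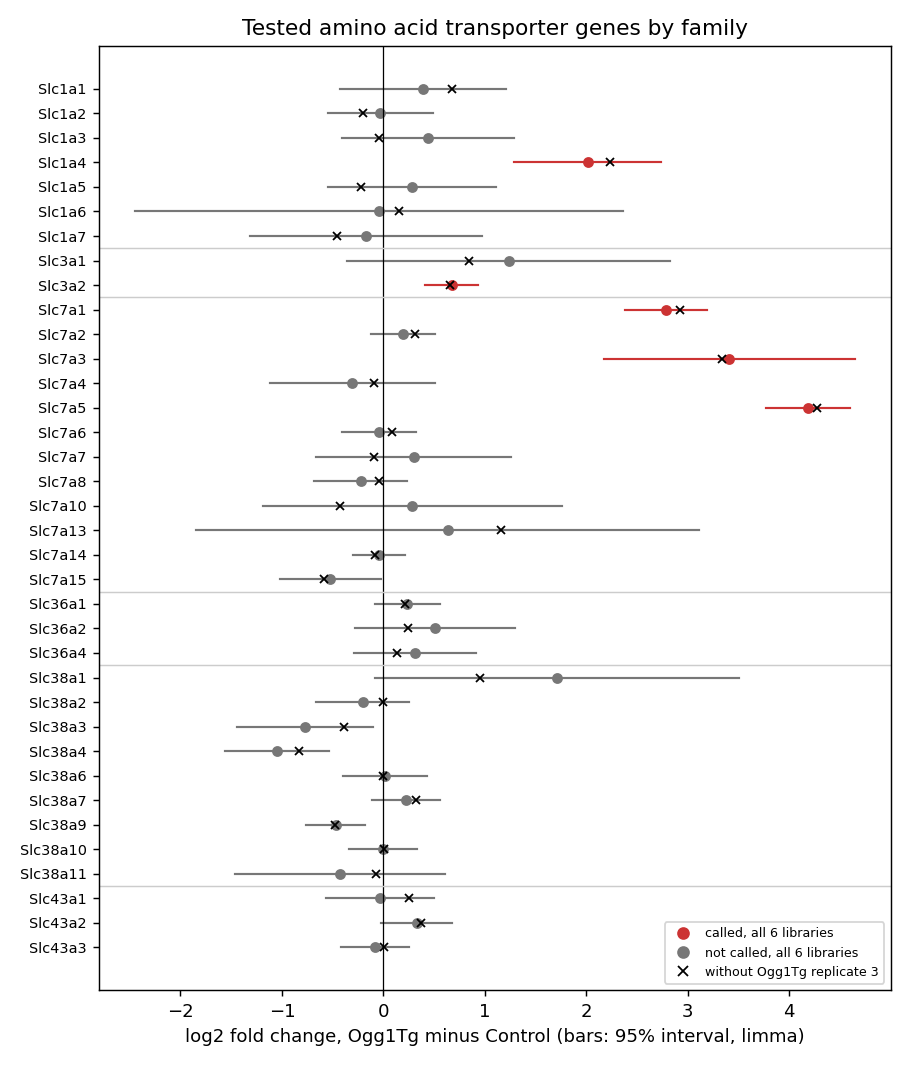
Log2 fold change of the 36 tested transporter genes, Ogg1Tg minus Control, ordered by family; circles and bars are the limma estimate and its 95% interval with all 6 libraries, red marks called genes, and crosses are the estimate without Ogg1Tg replicate 3. The 5 called genes are the red ones, with Slc7a5 farthest right at 4.18, and the cross of Slc1a5 lies on the other side of 0 from its circle.

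System A carriers, which bring small neutral amino acids into the cell with sodium, did not pass in either direction. Slc38a2 (SNAT2), the system A carrier that is best known for its response to amino acid shortage, measured 13066, 10539.8 and 9389.7 scaled reads in Control and 10597, 11148 and 7144 in Ogg1Tg. The groups overlapped, and the 95% interval of the Slc38a2 fold was 0.63 to 1.19. That interval lies below the intervals of the 5 called genes, and the difference between genes was not tested. Slc38a4 (SNAT4), an imprinted gene expressed mainly in liver and muscle, measured 9544, 8211 and 7074 in Control and 3791, 5607 and 2954 in Ogg1Tg. All 3 Ogg1Tg values of Slc38a4 lay below all Control values. Its log2 fold change was -1.05 ± 0.23 SE, with a 95% interval of the fold from 0.34 to 0.69, and it did not pass (limma adjusted p = 0.12). Slc38a4 was called lower when Ogg1Tg replicate 2 or 3 was left out (limma adjusted p = 0.022 and 0.038, the latter 0.25 with the filter on all 6 libraries) and with DESeq2 on recovered reads (adjusted p = 0.0032).

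Per kb, Slc38a4 held 60.9% ± 0.77 of the summed system A level in Control and 45.9% ± 4.6 in Ogg1Tg, and Slc38a2 38.9% ± 0.77 and 52.5% ± 3.9. The sum was 3723, 3124 and 2731 in Control and 2118, 2581 and 1554 in Ogg1Tg. Slc38a1 (SNAT1), the third gene of the class and known from brain and immune cells, measured 83.2, 75.5 and 138 in Control and 501, 68.8 and 905 in Ogg1Tg. Ogg1Tg replicates 1 and 3 were high and replicate 2 lay just below the Control libraries, so the groups overlapped. Slc38a1 did not pass with all libraries (limma adjusted p = 0.47), and was called higher without Ogg1Tg replicate 2 (limma adjusted p = 0.013). The lymphocyte markers summed to 124 scaled reads in replicate 1, 90.0 in replicate 2 and 10980.4 in replicate 3, and their part in the Slc38a1 value was not tested.

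Slc38a3 (SNAT3), the system N carrier of glutamine, histidine and asparagine, measured 4162, 4485 and 3464 scaled reads in Control and 3500.1, 2674 and 1380.1 in Ogg1Tg. The lowest value was in Ogg1Tg replicate 3, and Ogg1Tg replicate 1 lay within the Control range. The log2 fold change of Slc38a3 was -0.77 ± 0.30 SE with all libraries and -0.39 without Ogg1Tg replicate 3, and it did not pass (limma adjusted p = 0.38). The skeletal muscle markers were also lowest in that library, as given above, and their part in the Slc38a3 value was not tested. Slc38a5 (SNAT5), the other system N carrier, had 2 reads over all Control samples and 1 over all Ogg1Tg samples.

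The lysosomal carriers did not pass. Slc38a9 (SNAT9), the lysosomal arginine sensor that acts upstream of the growth regulator mTORC1, measured 1519, 1491 and 1441 scaled reads in Control and 1199, 951 and 1075 in Ogg1Tg. All Ogg1Tg values were lower, the highest of them at 1199 against a lowest Control value of 1441. The log2 fold change of Slc38a9 was -0.47 ± 0.13 SE (limma adjusted p = 0.21), and -0.47 without Ogg1Tg replicate 3. Slc38a7 (SNAT7), which exports glutamine from lysosomes, measured 431, 460 and 497 in Control and 581, 574 and 471 in Ogg1Tg. The groups of Slc38a7 overlapped.

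**Figure D4:**
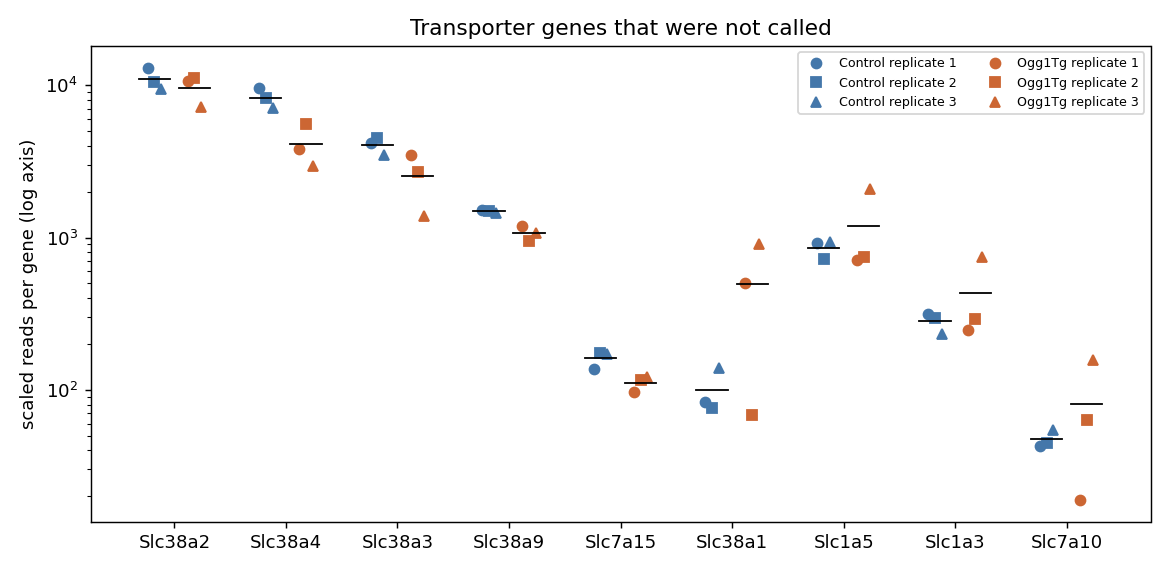
Scaled reads per gene (log axis) of 9 transporter genes that did not pass, by library; blue marks Control, orange marks Ogg1Tg, shapes mark replicate numbers and black lines mark group means. Slc38a4, Slc38a9 and Slc7a15 are lower in all 3 Ogg1Tg libraries than in Control, while Slc1a5, Slc1a3 and Slc7a10 are highest in Ogg1Tg replicate 3.

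The proton-coupled carriers did not pass. Slc36a1 (PAT1), a carrier of small amino acids in lysosomes and at the cell surface, measured 477, 573 and 570.4 scaled reads in Control and 589, 658 and 661 in Ogg1Tg. The groups did not overlap, and the 95% interval of the Slc36a1 fold was 0.94 to 1.47. Slc36a4 (PAT4) measured 198 to 285 in Control and 193 to 355 in Ogg1Tg. Slc36a2 (PAT2), a carrier of glycine, alanine and proline that is also known from brown fat, measured 70.7, 83.9 and 64.0 in Control and 63.3, 116 and 151 in Ogg1Tg. Of the brown fat markers, Ucp1 had 2 reads in Control and 0 in Ogg1Tg, and Cidea and Elovl3 measured at most 28.7 scaled reads in any library. Cidea had means of 18.86 in Control and 10.85 in Ogg1Tg, with overlap. Elovl3 had means of 12.68 and 22.31, without overlap, beside 7.03% of all genes tested, and did not pass. The part of these markers in the Slc36a2 value was not tested.

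Glutamate and aspartate carriers were low in muscle, and none passed. Slc1a3 (GLAST), best known from astroglia, was the highest of the class per kb, and measured 315, 298 and 231 scaled reads in Control and 248, 294 and 747 in Ogg1Tg. As for Slc1a5, only Ogg1Tg replicate 3 was high, and without it the log2 fold change of Slc1a3 was -0.05 in place of 0.44. Slc1a2 (GLT-1) measured 179.5 ± 22.2 and 178 ± 40.8, and Slc1a1 (EAAT3) 95.9 ± 27.6 and 131 ± 59.6. Slc1a7 ranged from 14.6 to 41.8 over all 6 libraries. Slc1a6, a carrier of the cerebellum, had 5 reads in Control and 7 in Ogg1Tg. Slc7a13, a light chain for aspartate and glutamate, had 1 and 6 reads.

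None of the 6 tested members grouped here as orphans, those not placed in a substrate class, passed, and 1 of them had the highest level of all members. Slc38a6 (SNAT6) measured 52395, 52232 and 54990.1 scaled reads in Control and 53407, 52521 and 55165 in Ogg1Tg. At 6836 ± 199 scaled reads per kb in Control it was the highest member, ahead of Slc38a4 at 1942 ± 290.1, Slc38a2 at 1245 ± 213, Slc3a2 at 874 ± 42.0 and Slc38a3 at 765 ± 98.9. Slc38a6 and Slc38a4 were separated beyond their spread, while Slc3a2 and Slc38a3 ranges in Control, 837 to 920 and 656 to 850, overlapped. No other GENCODE gene overlaps the span of Slc38a6, and where in the gene its reads lie cannot be read from a value per gene. Slc7a14, a lysosomal member of the cationic branch, measured 1390 ± 43.7 and 1345 ± 66.5, with a 95% interval of the fold from 0.81 to 1.16. Slc38a10 measured 2285 ± 381 and 2267 ± 172, with an interval from 0.79 to 1.26. Slc7a15 measured 137, 173 and 171 in Control and 96.6, 116 and 121 in Ogg1Tg, without overlap, and did not pass (limma adjusted p = 0.43). Slc7a4 and Slc38a11 had group means below 65 and did not pass.

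The remaining 5 members were not tested. Slc7a9, the light chain of cystine uptake in the kidney, and Slc7a12 had 0 reads in every library, Slc38a8 had 2 reads in Ogg1Tg alone, and Slc36a3 had 4 reads in Control alone. Slc38a5 is given above.

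By family, 1 of 7 tested Slc1a genes rose, 1 of 2 Slc3a genes, 3 of 12 Slc7a genes, and none of 3 Slc36a, 9 Slc38a and 3 Slc43a genes. The median log2 fold change was 0.29 for Slc1a, 0.95 for Slc3a, 0.24 for Slc7a, 0.31 for Slc36a, -0.21 for Slc38a and -0.03 for Slc43a. Without Ogg1Tg replicate 3 these medians were -0.05, 0.75, 0.02, 0.21, -0.0062 and 0.25. The Slc38a median also changed sign, to 0.03, with quantile normalization, and the Slc43a median, to 0.02, with median-of-ratios rescaling. Whether families differ from each other was not tested.

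Of 22 further amino acid carriers and related transporters outside these families, 21 were found and 17 were tested. Of the tested genes 2 were called higher and none lower, beside 0.395% and 0.150% of all genes tested. Slc6a9 (GlyT1), a sodium-coupled glycine carrier, measured 198, 277 and 312 scaled reads in Control and 1051, 865 and 596 in Ogg1Tg. Slc6a9 rose 3.15-fold (limma adjusted p = 0.025). Slc17a7 (VGLUT1), which loads glutamate into synaptic vesicles, measured 13.9, 11.2 and 13.1 in Control and 113, 119 and 159 in Ogg1Tg. Slc17a7 rose 9.52-fold from this low level (limma adjusted p = 0.0034). The 2 most abundant of these genes did not pass: Slc6a6, the taurine carrier, measured 10624 ± 1331 and 7971 ± 1756, and Slc6a8, the creatine carrier, 7553 ± 732 and 7329 ± 1843. Of the genes that did not pass, Slc16a10, Slc6a17 and Slc15a4 lay lower in Ogg1Tg without overlap, and Slc6a19 lay higher. Over all genes tested, 11.3% lay lower and 7.03% higher without overlap.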

How the data were processed

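The authors deposited 1 table per library. The deposited values are named FPKM but are a signal of another kind: counts of reads per gene divided by 1 factor per library, since all values of a library are whole multiples (within 0.01 of a read) of its smallest value. For Ogg1Tg replicate 3 that step is close to 1, which makes its recovery less distinctive. Trimmomatic, SAMtools, HTSeq and mm10 come from the submitters' processing notes; which aligner, gene annotation and strand option were used was not given there. Of 37315 entries, 1824 without a gene name were dropped (2.38% to 3.53% of reads). Genes with a mean of at least 1 were tested as log2(value + 1), so folds of low genes come out too small, with limma 3.58.1 in R 4.3.3 (variance trend, two-sided moderated test, Benjamini-Hochberg adjustment over all genes, called under 0.05), and the code was tested on simulated data. Alternatives included edgeR 4.0.16 and DESeq2 1.42.0 on recovered reads. Positions and exon lengths come from GENCODE M21. There, Slc1a1 (2631), Slc3a1 (601), Slc7a4 (554), Slc7a10 (377) and Slc7a7 (232) share exon bases with a protein-coding gene on the other strand. Slc43a2 (922), Slc7a2 (635), Slc38a10 (367), Slc1a2 (189) and Slc38a9 (182) share exon bases with a noncoding gene there. Without the strand option, how reads in those bases were counted cannot be told. Members and lists were chosen with earlier results of these data known. Values in every library are given for called members, for members without overlap at an unadjusted p under 0.05, and for the most abundant of each family and class per kb; other members shown by library were chosen after their values were seen.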

Additional observations from a re-analysis of the deposited data

How the results depend on the processing

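The count of members called higher was 5 after median-of-ratios rescaling, without a filter, with a mean minimum of 5, and with edgeR or DESeq2 on recovered reads, 4 with quantile normalization, 3 with a pseudocount of 0.1 and 2 without a variance trend. With 1 library left out it ran from 2 to 5, with Slc38a1 among the 3 called without Ogg1Tg replicate 2. None was called lower except 1, Slc38a4, without Ogg1Tg replicate 2, without Ogg1Tg replicate 3 and with DESeq2, so that count ran from 0 to 1. Without Ogg1Tg replicate 3 the result depended on the filter: 5 members were called higher when low genes were filtered on the remaining 5 libraries and 2 when filtered on all 6. The total over all genes was 127, with 46 without a variance trend, 622 with DESeq2, 35 to 425 with 1 library left out, and 28 without Ogg1Tg replicate 3 with the filter on all 6. Slc7a5 and Slc7a1 were called in every fit. With 1 library left out, log2 fold changes ran from -0.048 to 0.75 for Slc1a3, -0.22 to 0.55 for Slc1a5, -0.13 to 0.085 for Slc7a6, -0.0062 to 0.037 for Slc38a6 and -0.18 to 0.0092 for Slc43a3. The sign changed without Ogg1Tg replicate 3 for Slc1a3 (-0.048), Slc1a5 (-0.22), Slc7a6 (0.085), Slc38a6 (-0.0062), Slc43a3 (0.0092), Slc7a10 (-0.43), Slc7a7 (-0.093), Slc43a1 (0.25), Slc1a6 (0.15) and Slc38a10 (0.0093). For Slc7a6 it also changed with median-of-ratios rescaling (0.014), without Control replicate 1 (0.044), with edgeR (0.038) and with DESeq2 (0.015). Other changes of sign included those of Slc43a1 (0.024), Slc38a10 (0.055), Slc1a2 (0.026) and Slc7a14 (0.0076) with median-of-ratios rescaling. Slc38a2 changed sign with quantile normalization (0.026). None of these genes was called in any fit, and the cause was not tested. Same-numbered libraries share only a number: their deviations from the group means correlated at -0.053 to 0.031, against -0.072 to 0.072 for other pairs. With the replicate block 102 genes and 4 members were called, and Slc3a2 was the member lost (limma adjusted p = 0.13). Of the called members Slc7a3 had the fewest Control reads, 18.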
